A study of Mus musculus with 6 samples.

Results

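Yap, Taz and their targets were followed here as 10 genes chosen by name, 2 transcriptional coactivators, 1 DNA-binding partner, and 7 genes that regulate them or that they drive. The genes were Yap1, Wwtr1 (the gene that encodes Taz), Tead1, Ccn1 (Cyr61), Ccn2 (Ctgf), Ankrd1, Amotl2, Ajuba, Axl and Lats2. All 10 had a row in the deposited table of 43274 genes, and 9 of them were among the 16368 genes with enough counts for a test, the exception being Ankrd1. None of the 9 tested genes passed limma's test between genotypes over all 6 libraries after adjustment over all genes. Of all genes tested, limma called 2.93% higher and 0.599% lower. DESeq2 on the recovered reads called Ccn2 lower, as it did 1.3% of the genes tested there. The lowest mean levels relative to control were those of Ccn2, Ccn1 and Amotl2. In contrast, Axl, Lats2, Tead1, Ajuba and, by the smallest margin, Yap1 lay above control in mean.

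Bulge stem cells (SCs) of the hair follicle were sorted from mouse epidermis at postnatal day 21 as cells positive for CD34 with high α6 integrin, and RNA-seq was carried out on 3 libraries per genotype, named control and ILK-K5. ILK is integrin-linked kinase, an adaptor that ties β1 integrins to actin. Control mice are labelled ILK +/- and carried 1 floxed Ilk allele, and ILK-K5 mice are labelled ILK -/- and carried floxed alleles only. Mice of both genotypes carried Cre under the keratin 5 promoter, which is active throughout the basal epidermis and not in the bulge alone, so the comparison is between complete and heterozygous loss with Cre present in each. How many mice went into a library is not stated in the sources used here, so the p-values measure the spread between these libraries, which may be partly technical.

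Yap and Taz are transcriptional coactivators that have no DNA-binding domain and act through Tead factors. The kinase cascade named Hippo ends in the Lats kinases, which phosphorylate Yap and Taz so that they are held in the cytoplasm or degraded, and in many cell types integrin adhesion and tension in the actin skeleton favour their entry into the nucleus. In skin they are known for their part in the growth of basal keratinocytes. Since this control acts largely on the proteins, the level of Yap1 or Wwtr1 mRNA does not show how much Yap or Taz is in the nucleus, and no protein was measured here.

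Tead factors are known to bind the letters GGAATG, which read CATTCC on the other strand. RefSeq promoter windows of 300 bases, from 250 before to 50 after a gene's start on GRCm38.p6, were matched by symbol for 8 of the 10 genes, and not for Tead1 and Ccn2. They are shown because Yap and Taz act through Tead factors, with the motif in capitals, 5′ to 3′ on the strand of the gene. Printed are 40 bases on each side where the window allows, or 12 where GENCODE M21 places the stretch in the first exon of a longer transcript, as for Amotl2 and Ankrd1. The coordinates are chr9:8004692-8004777 for Yap1 (minus strand), chr3:57576001-57576086 for Wwtr1 (minus), chr3:145650043-145650128 for Ccn1 (minus), chr9:102717727-102717756 for Amotl2 (plus), chr14:54577780-54577887 for Ajuba (minus), chr7:25788921-25788983 for Axl (minus) and chr19:36120037-36120066 for Ankrd1 (minus).
Yap1: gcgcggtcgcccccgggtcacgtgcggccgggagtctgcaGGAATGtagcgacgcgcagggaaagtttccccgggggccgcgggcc
Wwtr1: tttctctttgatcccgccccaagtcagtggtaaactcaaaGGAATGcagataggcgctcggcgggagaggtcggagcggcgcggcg
Ccn1: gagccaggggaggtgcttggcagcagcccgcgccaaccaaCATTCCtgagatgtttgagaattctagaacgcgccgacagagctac
Amotl2: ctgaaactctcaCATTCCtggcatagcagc
Ajuba: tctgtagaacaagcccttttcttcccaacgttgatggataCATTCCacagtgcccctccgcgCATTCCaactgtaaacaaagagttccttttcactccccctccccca
Axl: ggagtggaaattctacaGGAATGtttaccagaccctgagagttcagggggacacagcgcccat
Ankrd1: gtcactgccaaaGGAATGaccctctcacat

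The motif began 65 bases before the start of Amotl2, 103 before that of Ccn1, 141 before that of Yap1 and 233 before that of Axl. Ajuba held it at 186 and 164 bases before its start, Ankrd1 at 210 and 123, and the windows of Wwtr1, which overlap, share 1 match. The whole Ajuba window lies upstream of the gene's start in GENCODE M21 (base 54577558), so its distances hold for the RefSeq start only. In Lats2, 1 of its windows held the motif at base 5 after the RefSeq start. The Lats2 windows lie inside the gene, downstream of its start in GENCODE M21 (base 57758388), so this distance too holds for the RefSeq start only. All 8 genes with a window thus held the letters at least once, against 16.6% of the 27025 genes with a window of this length (4481 genes). The 8 genes were chosen by name and several are known Yap targets, so that this contrast is not a test. The share was 4 of 15 among other Hippo genes, 5 of 11 among partners of Yap and Taz, and 2 of 10 among other reported Yap and Taz targets. A match of 6 letters is a description and not a measured binding site, and binding was not assayed in these libraries.

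**Figure D1:**
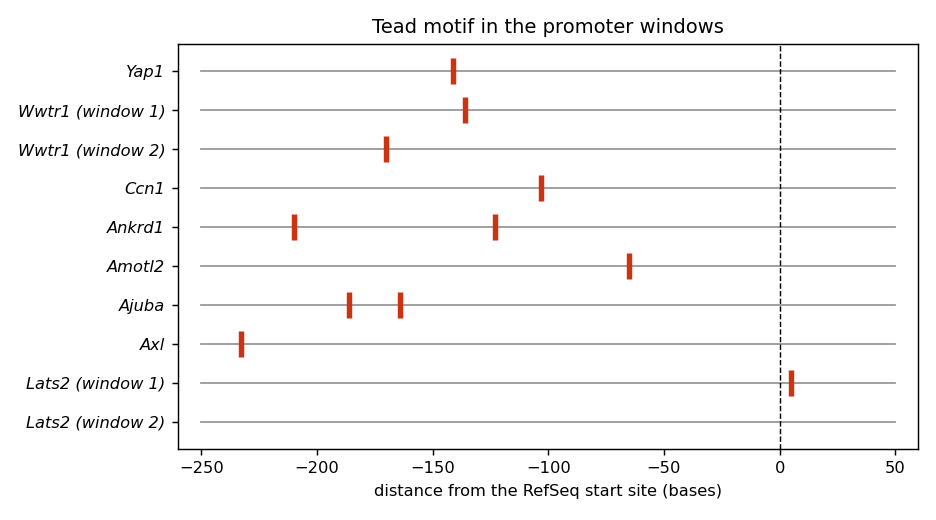
Position of the motif GGAATG, on either strand, in the RefSeq promoter windows of 8 genes. The x axis gives the distance in bases from the annotated start site (dashed line), each grey line is 1 window and each mark the first base of 1 match, which lies upstream in 7 genes and at base 5 after the start in Lats2.

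Between 8228019 and 11969072 reads per library fell on genes, and 1 read was worth 0.726 to 1.52 normalized counts. Ilk itself had 11 to 53 reads in control and 13 to 40 in ILK-K5 libraries, and 89.7% of its annotated exon bases overlap exons of Rrp8 or Taf10 on the opposite strand, so its count does not check the labels. All 10 bulge markers were detected, among which Cd34 alone was called, and was lower (log2 fold change -1.90 ± 0.37 (SE), adjusted p = 0.0239 in limma). Of the 10 fold changes 4 lay above 0 and 6 below, with a median of -0.07. The sum of the 10 markers was 48078 to 112147 normalized counts in control and 25846 to 53075 in ILK-K5 libraries, so that the ranges overlapped. Krt15 was the largest part of this sum in each library, with 97406 of 112147 in control replicate 3. The summed level of 15 macrophage markers was 431 to 460 normalized counts in control and 18101 to 24572 in ILK-K5 libraries, all 14 tested markers were called higher, and Fcgr1 was at 0 in every control library. The sum of 8 fibroblast markers was 703 to 781 in control, with Lum at 0, and 1547 to 2513 in ILK-K5 libraries. Among 6 melanocyte markers Mitf alone was called (log2 fold change -1.84, adjusted p = 0.0118), and Tyrp1 was at 3.29 (adjusted p = 0.119), the sum over the list being 680 to 1308 in control and 269 to 478 in ILK-K5 libraries. That of 7 differentiated keratinocyte markers was 3944 to 21257 and 4687 to 7566. Among these 7 Lor alone was called (log2 fold change -3.91, adjusted p = 0.0182 in limma), and 5 fold changes lay below 0 and 2 above. Sums overlapped between genotypes for basal keratinocyte, endothelial, smooth muscle and T cell markers. The part of these cell types in the values below was not tested. In such bulk samples fewer cells of a type and less RNA per cell cannot be told apart.

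Genotypes were compared with limma on log2 of the normalized count plus 1, and a gene was called at a Benjamini-Hochberg adjusted p of at most 0.05. Of all 16368 genes tested, 2.93% were called higher and 0.599% lower in ILK-K5. Of the 9 tested genes of the group, 0 were called in either direction. At an unadjusted p under 0.05 there were 3 of 9 lower (Ccn1, Ccn2 and Amotl2), where 4.11% of all genes were, and 0 of 9 higher, where 8.18% were. Every ILK-K5 library was below every control library for 3 of the 9 (Wwtr1, Ccn2 and Amotl2), as for 6.95% of all genes, and above for 1 (Tead1), as for 10.9%. The 9 log2 fold changes ran from -1.28 to 0.68, with 5 above 0, 4 below and a median of 0.08, beside a median of 0.0054 over all genes.

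The coactivators were measured at different precision. Yap1 (chr9:7931999-8004596, minus strand) had 1547, 1464 and 1485 normalized counts in control replicates 1 to 3 and 1360, 1443 and 2032 in ILK-K5 replicates 1 to 3. The control libraries lay close together, and ILK-K5 replicate 3 alone stood above them, while the other ILK-K5 libraries were below the lowest of them. The means were 1498 ± 42.9 (SD, n = 3) and 1612 ± 366, and the log2 fold change of 0.08 ± 0.26 (SE) had a 95% interval from -0.49 to 0.66 (adjusted p = 0.956).

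Wwtr1, which encodes Taz (chr3:57455649-57575910, minus strand), had 1084, 823 and 677 normalized counts in control and 611, 649 and 621 in ILK-K5 libraries. All ILK-K5 libraries lay below all control libraries, although the distance from control replicate 3 was small and most of the spread was within control. The log2 fold change was -0.43 ± 0.26 with an interval from -1.02 to 0.16 (adjusted p = 0.640). Neither coactivator therefore passed the test, and the intervals leave room for differences of up to 0.66 in Yap1 and down to -1.02 in Wwtr1 on the log2 scale.

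Tead1, a Tead family factor (chr7:112679318-112906807, plus strand), had 648, 458 and 620 normalized counts in control and 806, 693 and 746 in ILK-K5 libraries. The genotypes did not overlap, with the lowest ILK-K5 library just above the highest control library. The log2 fold change of 0.39 ± 0.26 had an interval from -0.18 to 0.97 (adjusted p = 0.677). Its paralogues Tead2, Tead3 and Tead4 were also detected, and that with the largest fold change was Tead3, with 43.4, 21.3 and 79.1 against 54.6, 91.8 and 86.7 normalized counts (log2 fold change 0.84 ± 0.53, adjusted p = 0.665).

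Lats2, a kinase that inactivates Yap and Taz and is itself a known Yap target (chr14:57689662-57758388, minus strand), had 251.8, 299.6 and 433.2 normalized counts in control and 367.7, 441.2 and 704.3 in ILK-K5 libraries. ILK-K5 replicates 2 and 3 lay above all control libraries, and replicate 1 lay within their range. Its log2 fold change was 0.60 ± 0.34 with an interval from -0.16 to 1.36 (adjusted p = 0.591). Of its exon bases 42.4% are shared with Gm49361 on the same strand, for which the table has no row, so that how these reads were assigned is not known.

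Ajuba, a LIM-domain protein that restrains the Lats kinases (chr14:54567472-54577558, minus strand), had 261, 298 and 373 normalized counts in control and 392, 413 and 370 in ILK-K5 libraries. Control replicate 3 fell within the narrow range of the ILK-K5 libraries, and the other control libraries were lower. The log2 fold change was 0.35 ± 0.27 with an interval from -0.25 to 0.95 (adjusted p = 0.754).

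Amotl2, an angiomotin-family protein that binds Yap and is also transcribed in response to it (chr9:102716672-102733418, plus strand), had 194, 89.7 and 84.9 normalized counts in control and 72.9, 38.6 and 43.8 in ILK-K5 libraries. The genotypes did not overlap, and control replicate 1 was far above the others. The means were 123 ± 61.6 (SD, n = 3) and 51.8 ± 18.5, and the log2 fold change was -1.18 ± 0.46 with an interval from -2.22 to -0.14 (adjusted p = 0.309 in limma). It was the least abundant of the tested genes, with 45 to 201 reads per library, so that counting error weighs more on it than on the others.

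**Figure D2:**
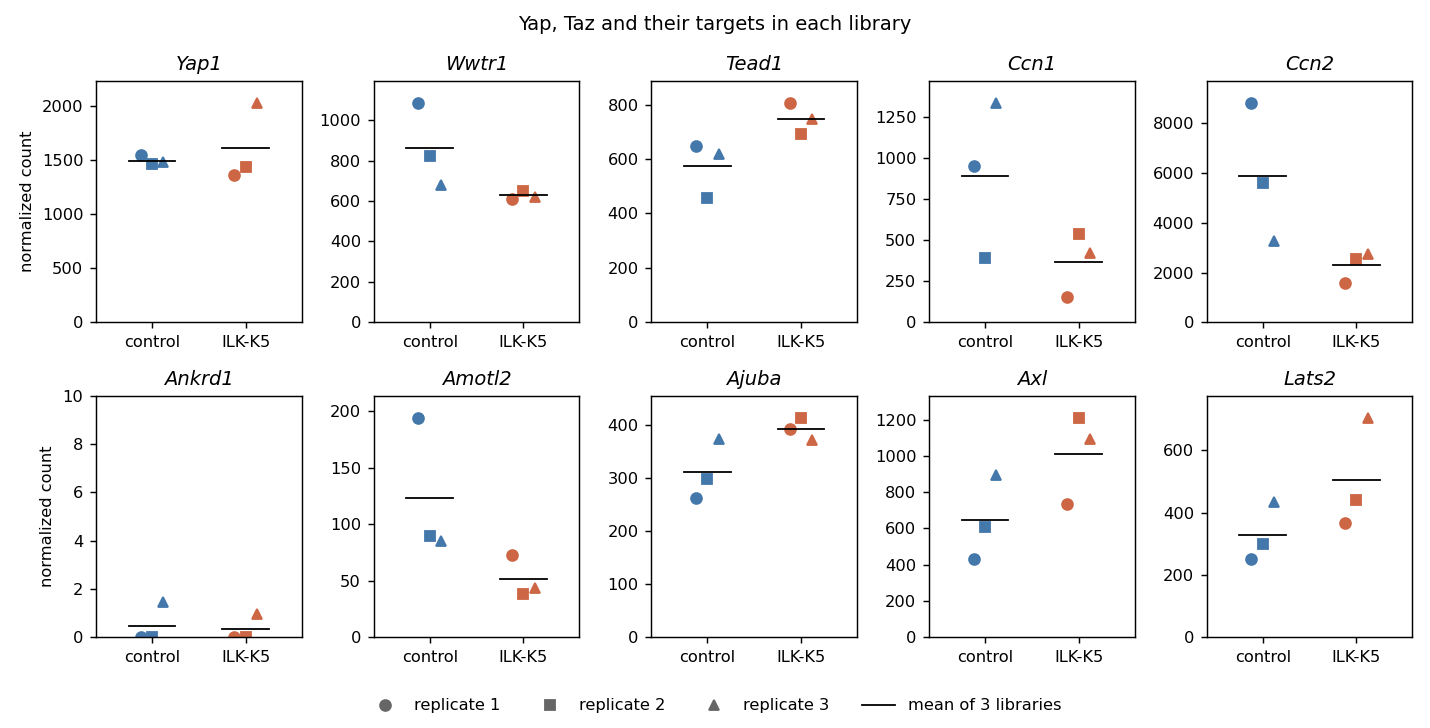
Normalized counts (y axis, starting at 0) of the 10 genes in each of the 3 control and 3 ILK-K5 libraries, with the replicate as the symbol and the mean of 3 libraries as the bar. Genotypes do not overlap for Wwtr1, Ccn2 and Amotl2, which are lower in ILK-K5, and for Tead1, which is higher, and Ankrd1 has at most 2 reads in any library.

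Among the targets, Ccn1 (Cyr61) and Ccn2 (Ctgf) encode secreted matricellular proteins that bind integrins and are the most widely used readouts of Yap and Taz. Ccn2 (chr10:24595442-24598683, plus strand) had 8808, 5602 and 3276 normalized counts in control and 1600, 2561 and 2731 in ILK-K5 libraries. Every ILK-K5 library was below every control library, but the control libraries themselves spread from 3276 to 8808. The means were 5895 ± 2777 (SD, n = 3) and 2297 ± 610, 2.43-fold lower on the log2 scale of the test. The log2 fold change was -1.28 ± 0.39 with an interval from -2.17 to -0.40 (adjusted p = 0.152 in limma).

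The call on Ccn2 depended on the test and on 1 library. With DESeq2 on the recovered reads it was called lower (log2 fold change -1.36, adjusted p = 0.0321), as were 1.3% of the genes tested there, and it was the only one of the 10 genes so called. Without control replicate 3, the lowest control library, limma called it (log2 fold change -1.65, adjusted p = 0.0400). In that fit 0.567% of genes were called lower. With any other library left out limma did not call Ccn2 (log2 fold change -1.43 to -0.94, adjusted p 0.274 to 0.389). Neither did edgeR on all libraries (adjusted p = 0.148). Exons of the antisense gene Gm15270 cover 23.2% of the exon bases of Ccn2, and its reads numbered 13, 19 and 150 in control and 14, 63 and 65 in ILK-K5 libraries, few beside the 1405 to 9129 reads of Ccn2.

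Ccn1 (chr3:145646976-145649981, minus strand) had 947, 391 and 1332 normalized counts in control and 155, 534 and 419 in ILK-K5 libraries. The genotypes overlapped, since control replicate 2 was below ILK-K5 replicates 2 and 3. The means were 890 ± 473 (SD, n = 3) and 369 ± 195, and the log2 fold change of -1.27 ± 0.55 had an interval from -2.52 to -0.03 (adjusted p = 0.386 in limma). Its fold change was as large as that of Ccn2, with a larger error.

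Ccn1 and Ccn2 followed each other only in part from library to library. Each had its lowest value in ILK-K5 replicate 1. Among the control libraries, however, Ccn2 was highest in replicate 1 and lowest in replicate 3, where Ccn1 had its highest value. Between libraries of the same number, ILK-K5 minus control, Ccn2 differed by -2.46, -1.13 and -0.26 on the log2 scale in replicates 1, 2 and 3, and Ccn1 by -2.61, 0.45 and -1.67. Amotl2 differed by -1.40, -1.20 and -0.94, and so lay below control under each number, as did Wwtr1 (-0.83, -0.34 and -0.12). Tead1 (0.31, 0.60 and 0.27), Axl (0.77, 0.99 and 0.29) and Lats2 (0.54, 0.56 and 0.70) lay above control under each number. The library names match in their number between genotypes, and the paper states that controls were littermates of ILK-deficient mice. Whether libraries of the same number are paired is not stated in the sources used here. These differences are therefore given as a description only.

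In each genotype the library name of replicate 1 ends in another number than those of replicates 2 and 3, which the labels do not explain. With replicates 2 and 3 alone, the log2 fold change was -0.70 for Ccn2 (adjusted p = 0.506), -0.61 for Ccn1 (adjusted p = 0.758) and -1.07 for Amotl2 (adjusted p = 0.317). The Ccn1 and Ccn2 differences were thus smaller by over 1.5 times without the libraries numbered 1, and that of Amotl2 was close to its value over all libraries.

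Axl, a receptor tyrosine kinase that binds Gas6 and is a known Yap target (chr7:25757273-25788705, minus strand), had 432, 607 and 895 normalized counts in control and 735, 1210 and 1091 in ILK-K5 libraries. ILK-K5 replicates 2 and 3 exceeded all control libraries, and replicate 1 lay below control replicate 3. The log2 fold change was 0.68 ± 0.34 with an interval from -0.07 to 1.44 (adjusted p = 0.491 in limma), in the opposite direction to Ccn1, Ccn2 and Amotl2. Axl is also expressed by macrophages, whose markers were higher in the same libraries, and the share of its reads that came from such cells was not tested.

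Ankrd1, a nuclear ankyrin-repeat protein best known from heart and muscle, had 2 reads in control replicate 3, 1 read in ILK-K5 replicate 3 and none in the other libraries (chr19:36111961-36120099, minus strand). It was at or under the floor of 3 reads in each library, so that no fold change is given, and a difference was not detectable at this depth.

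**Figure D3:**
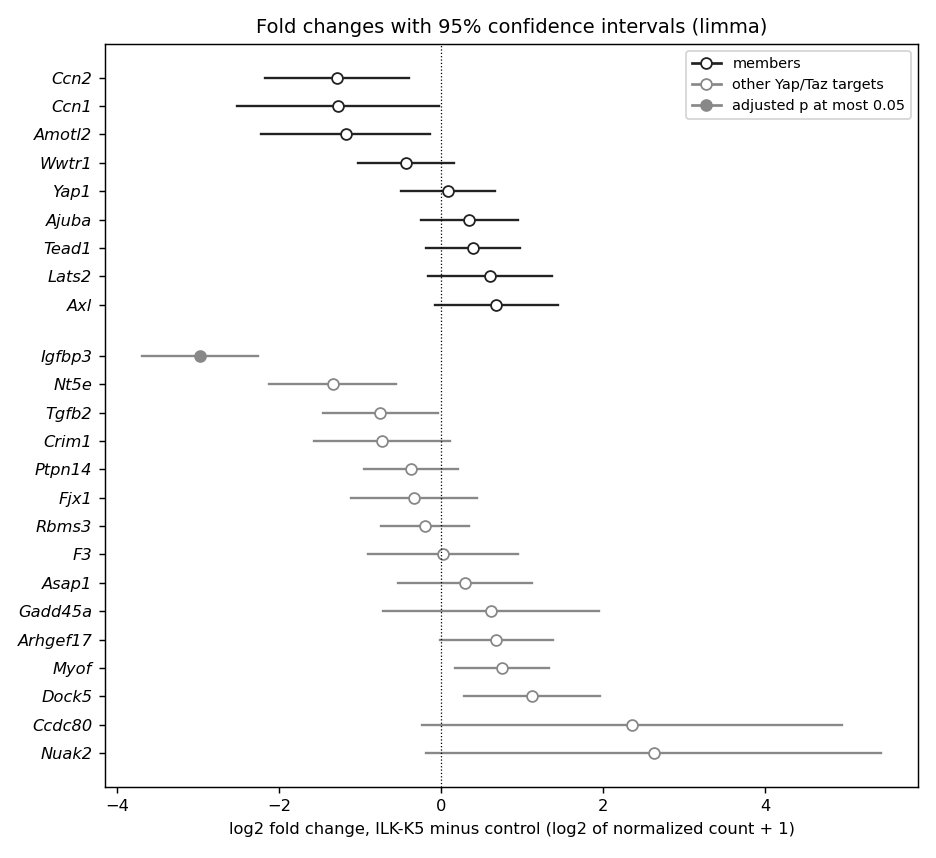
Log2 fold change of ILK-K5 minus control (x axis, circles) with its 95% confidence interval (lines) for the 9 tested genes in black and 15 other reported Yap and Taz targets in grey. Intervals of Ccn1, Ccn2 and Amotl2 exclude 0 but no adjusted p of the 9 is at most 0.05, and the filled circle is Igfbp3, the only gene shown that passed.

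Levels can be compared between genes only per length, which FPKM values allow as far as the length used for a gene is that of its expressed transcripts. Whether it is was not tested, so the order below holds for the deposited FPKM values only. In control libraries Ccn2 stood highest at 211 ± 99.6 FPKM (SD, n = 3), at percentile 98.6 of all tested genes, and did not overlap with Ccn1 at 45.0 ± 23.9. Below it came Wwtr1 at 18.5 ± 4.43, Yap1 at 16.6 ± 0.475, Axl at 13.1 ± 4.76 and Ajuba at 9.10 ± 1.66 FPKM, and from Ccn1 to Ajuba each gene overlapped with the next. Tead1 at 5.25 ± 0.940 and Lats2 at 4.61 ± 1.32 FPKM overlapped with each other, below the range of Ajuba, and Amotl2 at 3.16, 1.46 and 1.38 FPKM in the 3 libraries lay below them and above Ankrd1. The messenger RNAs of Yap and Taz were thus at like levels per length in control, the order differing between libraries, with Wwtr1 at 23.3, 17.7 and 14.5 and Yap1 at 17.1, 16.2 and 16.4 FPKM.

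In ILK-K5 libraries Ccn2 was again highest, at 82.3 ± 21.9 FPKM, and apart from all others. Axl at 20.6 ± 5.03, Ccn1 at 18.7 ± 9.84 and Yap1 at 17.9 ± 4.06 FPKM formed an overlapping run behind it, and Axl, which in control ranked below Yap1, stood next to Ccn2 by its mean. Yap1 lay above Wwtr1 (13.5 ± 0.414 FPKM) in all 3 ILK-K5 libraries, and Wwtr1 above Ajuba (11.5 ± 0.622). Lats2 at 7.08 ± 2.49 and Tead1 at 6.83 ± 0.515 overlapped, and Amotl2 was at 0.844 ± 0.301 FPKM. From control to ILK-K5 Ccn2 went from percentile 98.6 to 96.7 of tested genes, Ccn1 from 93.7 to 85.1 and Amotl2 from 35.4 to 15.9, while Axl went from 79.2 to 86.5.

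**Figure D4:**
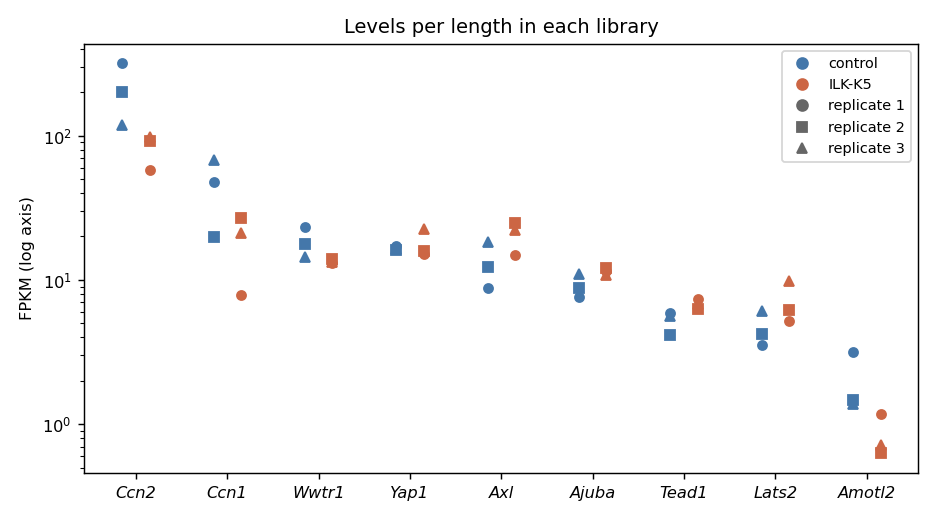
FPKM (log axis) of the 9 tested genes in each library, ordered by their mean in control, with colour for the genotype and symbol for the replicate. Ccn2 is highest in every library, and Amotl2 is lowest, with 0.629 to 1.19 FPKM in ILK-K5.

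Genes of the same pathway outside the group were read from lists drawn up by function. Of 18 genes of the Hippo kinase cassette and its activators, all were tested and 0 were called in either direction. Of all genes tested, 2.93% were called higher and 0.599% lower, so that 0 calls in a list this short do not stand out. The median log2 fold change of the 18 was 0.11. The largest fold changes belonged to Nf2, the merlin scaffold (93.6, 140 and 325 against 208, 385 and 362 normalized counts, log2 fold change 0.92, adjusted p = 0.526), and Map4k4, a kinase upstream of the Lats kinases (809, 595 and 659 against 971, 1005 and 852, log2 fold change 0.46, adjusted p = 0.552).

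Of 15 partners, namely other Tead factors, Vgll cofactors and proteins that bind or mark Yap and Taz, 13 were tested. Among them 0 were called, where 2.93% of all genes were called higher and 0.599% lower, and their median was 0.061. Beside Tead3, the largest fold change was that of Vgll4, a cofactor that competes with Yap for Tead (110, 192 and 475 against 208, 420 and 651 normalized counts, log2 fold change 0.83, adjusted p = 0.704). Single libraries moved these values, Vgll4 to 0.46 without ILK-K5 replicate 3 and 1.27 without ILK-K5 replicate 1. With a control library left out, Vgll4 was at 0.35 without replicate 1 and 1.40 without replicate 3, Tead3 at 0.36 without replicate 2 and 1.29 without replicate 3, and Nf2 at 0.53 without replicate 1 and 1.42 without replicate 3. Vgll1 had no read in any library.

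Of 16 other reported Yap and Taz targets, taken from a target set of cancer transcriptomes and not of skin, 15 were tested. Of these 0 were called higher and 1 lower, where 2.93% and 0.599% of all genes were. Their median was 0.024, so that 8 of their fold changes lay above 0 and 7 below. The gene called was Igfbp3, a secreted protein that binds insulin-like growth factors, with 2578, 1744 and 2820 normalized counts in control and 206, 372 and 337 in ILK-K5 libraries. Its libraries were far apart between genotypes, and its log2 fold change was -2.98 ± 0.32 (adjusted p = 0.00107 in limma), a 7.87-fold lower level. At an unadjusted p under 0.05, 3 of the 15 were lower and 2 higher, where 4.11% and 8.18% of all genes were. The lower ones were Igfbp3, Nt5e, an ectonucleotidase (log2 fold change -1.34, adjusted p = 0.0811 in limma), and Tgfb2 (-0.75). Those above control were Myof (0.75) and Dock5 (1.12). Nt5e, Tgfb2, Myof and Dock5 were singled out after their values were seen.

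Among genes related to single members, the other Ccn genes had few reads, and of 4 only Ccn4 had enough counts to be tested (log2 fold change 0.13, adjusted p = 0.968). Of the receptors related to Axl and their ligands, 4 were tested, with a median of -0.50. Among them 0 were called, where 2.93% of all genes were called higher and 0.599% lower. Gas6, the ligand of Axl, had 1075, 1270 and 1337 normalized counts in control and 296, 806 and 802 in ILK-K5 libraries (log2 fold change -1.08 ± 0.39, adjusted p = 0.257), and its log2 fold change was -0.60 without ILK-K5 replicate 1. All its ILK-K5 libraries were below control, whereas the values of its receptor Axl overlapped. Tyro3, another receptor of this family differed by -0.90 on the log2 scale (adjusted p = 0.378).

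Profiles over the 6 libraries were compared by the root mean square difference of centred log2 values, in which 0 means parallel profiles. Genes near to Yap1 were Atf2 (0.039) and Rpusd2 (0.060), and the nearest to Wwtr1 were Antxr1 (0.054), Isoc1 (0.057) and Rab40c (0.062). The nearest to Ccn2 were Dtwd2 (0.132), Mup19 (0.142) and Fam13c (0.186), and those to Ccn1 were Prss8 (0.295), Apcdd1 (0.298) and Gm6689 (0.333). From Ccn2 the distance was 0.53 to Wwtr1, 0.55 to Amotl2 and 0.83 to Ccn1. Ranked by nearness among all genes tested, Ccn1 was at 5231 from Ccn2, and Ccn2 was at 1430 from Ccn1, where it was the nearest of the 8 other tested members.

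**Figure D5:**
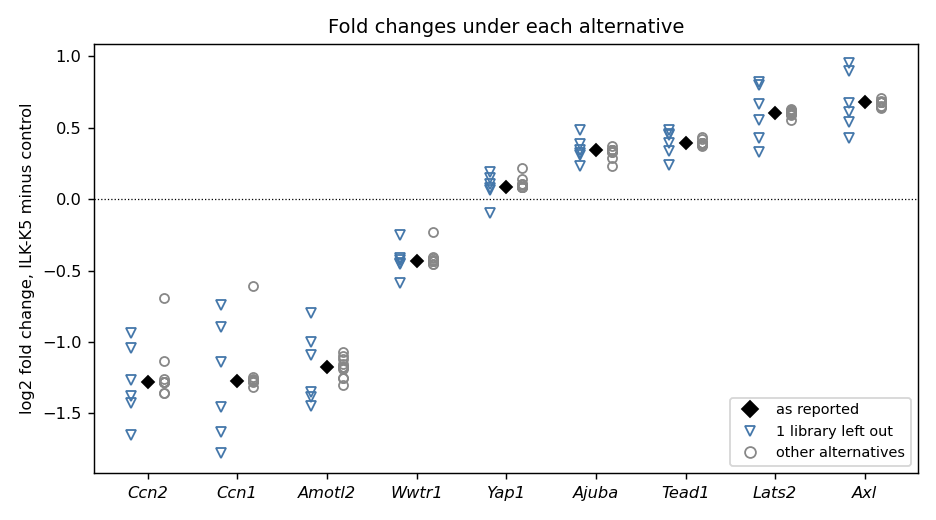
Log2 fold change of ILK-K5 minus control (y axis) of the 9 tested genes as reported (diamonds), with each library left out in turn (triangles) and under the other alternatives (circles). Fold changes of Ccn2, Ccn1, Amotl2 and Wwtr1 stay below 0 and those of Ajuba, Tead1, Lats2 and Axl above 0, while that of Yap1 runs from -0.10 to 0.22.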

How the data were processed

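Sorted bulge SCs of 3 control and 3 ILK-K5 libraries were sequenced by the authors as read pairs from amplified cDNA, cleared of adapters and ribosomal reads, and aligned to GRCm38. The submitters' processing notes name TopHat2 2.0.14, Bowtie2 2.2.4 and DESeq2 1.6.3. The program that counted reads per gene, and whether it used strand, is not given in the sources used here. The deposited signal values are counts that the authors divided by a size factor per library. In every library 100% of them were whole multiples of 1 value within 0.001, so that reads were recovered. The deposited FPKM values were scaled by the authors per gene length and were used for levels. The authors' own comparison tables (fold changes, standard errors, Wald statistics and p-values) were not used. Of 43274 IDs, 42107 (97.3%) had a symbol in GENCODE M21, and 0 columns were left without a sample.

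The comparison was fitted in limma 3.58.1 under R 4.3.3, using lmFit and a trended eBayes, on log2(normalized count + 1), over genes with a mean of at least 10, with a Benjamini-Hochberg adjusted p of at most 0.05. This gives smaller fold changes for low genes. Tests were two-sided, and an exact permutation test of 3 against 3 libraries cannot go below 0.1. The fit was checked on simulated counts. Alternatives were other pseudocounts (0.1 and 5), no filter or a mean of at least 50, quantile and TMM scaling, FPKM in place of normalized counts (pseudocount 0.1), edgeR 4.0.16 and DESeq2 1.42.0 on the recovered reads, a replicate block, a term for the number in the library name, replicates 2 and 3 only, and each library left out. Tables and plots were made with Python 3.11.15, pandas 2.3.3 and matplotlib 3.10.9.

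The members, lists and tests were chosen with earlier results of these data known. Named were all members, every called gene of a pathway list or else its 2 largest fold changes, and the 3 nearest profiles of Yap1, Wwtr1, Ccn1 and Ccn2. Some genes under this rule are left out of the text. Limits of 3 reads cover counting error only. Promoter sequences are from RefSeq, and protein sequences were not analysed here.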

Additional observations from a re-analysis of the deposited data

How the results depend on the processing

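Over 18 alternatives the log2 fold change of Ccn2 ran from -1.65 to -0.70 (adjusted p 0.0321 to 0.506), that of Ccn1 from -1.78 to -0.61 (0.145 to 0.758), that of Amotl2 from -1.45 to -0.80 (0.0518 to 0.794) and that of Axl from 0.43 to 0.95 (0.123 to 0.986). Among the members Yap1 alone changed sign (-0.10 without ILK-K5 replicate 3, and up to 0.19 with another library left out), and so did Ccn4 (-0.018 with quantile normalization, -0.14 with replicates 2 and 3, and -0.31 to 0.36 with a library left out, the lowest without ILK-K5 replicate 1). Members called lower numbered 1 with DESeq2 and 0 to 1 with a library left out, the call being Ccn2 each time. Genes called higher numbered 780 with DESeq2, 848 with the replicate block and 846 with the name term, and 217 to 554 with a library left out. Genes called lower numbered 265, 269 and 286, and 32 to 93. The lowest counts in both directions were those without ILK-K5 replicate 2. The causes were not tested. Libraries of the same number deviated together for numbers 1 and 3 (correlations 0.529 and 0.307) but not for number 2 (0.020). Not every library correlated best with its own number. These deviations were taken from means of 3 libraries, so the correlations cannot decide whether the libraries are paired. The replicate block is therefore not read as a paired design. It called 0 members, with adjusted p = 0.0590 for Ccn2 and 0.0794 for Amotl2, and it called Gas6 (0.0406) and Nt5e (0.00712). Nt5e was also called with DESeq2 (0.0149), with the name term (0.00672) and without control replicate 3 (0.0333), Gas6 and Dock5 with the name term (0.0371 and 0.0437). With 45 to 201 reads per library in Amotl2, and 3 libraries a genotype, smaller differences were not detectable.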
